A study of Drosophila melanogaster with 2 samples.

Results

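The subject is the 269 small nucleolar RNA (snoRNA) genes of Drosophila melanogaster, out of 18277 annotated genes on the major chromosome arms, and the 92 genes that host them. The question asked of each was whether the CG4360 protein was found in chromatin at the snoRNA, at the start of its host, or at neither. All genes given the biotype snoRNA by the annotation were members, so no measured value chose them. Chromatin immunoprecipitation followed by sequencing (ChIP-seq) was run on whole embryos aged 0 to 24 h of the strain CG4360-GFP, whose flies carry an inserted transgene for a fusion of CG4360 with eGFP. An antibody against GFP pulled down the fusion, so the peaks describe the tagged protein in all embryonic cells and ages mixed. The single group had 2 biological replicates, the chromatin was sheared to 200 to 800 bp, and there was no second condition. The labels name a possible control experiment, which was not analysed here.

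Most snoRNAs guide chemical modification of ribosomal RNA in the nucleolus. Box C/D snoRNAs carry a C box near the 5′ end and a D box near the 3′ end and direct 2′-O-methylation, whereas box H/ACA snoRNAs end shortly after the letters ACA and direct pseudouridylation. U3 is a box C/D snoRNA needed for cleavage of the ribosomal RNA precursor, and scaRNAs are their relatives in Cajal bodies that modify spliceosomal RNAs. In flies most snoRNAs are cut out of introns of a host gene, often a gene for a ribosomal protein or a non-coding gene named Uhg, for U snoRNA host gene, so that the promoter of the host drives the snoRNA as well.

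The sequences below are those on which the description of the summits turns, read from the dm6 (Release 6) assembly as held by RefSeq. The first 3 are snoRNA genes printed 5′ to 3′ on their own strand, with the ACA box and any GTTGTTG or CAACAAC in capitals. They show a summit inside a gene that holds the word, a summit inside a gene that lacks it, and a gene with no host and a summit beside it. Psi28S-2566 lies at chr3L:18896189-18896456 on the minus strand, Psi18S-1377c at chr3R:30207322-30207458 on the minus strand and Psi18S-301 at chr3R:20574906-20575043 on the plus strand.
snoRNA:Psi28S-2566: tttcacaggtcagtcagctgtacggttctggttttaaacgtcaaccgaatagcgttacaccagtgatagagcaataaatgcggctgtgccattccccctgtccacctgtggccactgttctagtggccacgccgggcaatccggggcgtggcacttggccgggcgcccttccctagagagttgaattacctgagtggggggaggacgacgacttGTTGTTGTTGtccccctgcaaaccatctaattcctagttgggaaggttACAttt
snoRNA:Psi18S-1377c: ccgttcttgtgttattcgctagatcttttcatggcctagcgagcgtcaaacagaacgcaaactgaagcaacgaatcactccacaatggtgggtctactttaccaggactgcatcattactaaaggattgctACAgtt
snoRNA:Psi18S-301: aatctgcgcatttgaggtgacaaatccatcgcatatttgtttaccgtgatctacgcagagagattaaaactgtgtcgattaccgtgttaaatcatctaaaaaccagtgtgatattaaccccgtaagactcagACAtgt

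The next 3 are windows of 50 bp to each side of a summit, on the plus strand, with CAACAAC or GTTGTTG in capitals. The first holds the word and the other two do not. They are chr2L:12507826-12507926 at the start of CG43051, chr2L:2013900-2014000 in an intron of CG4238, and chr2L:901530-901630 on the U1 gene snRNA:U1:21D.
snoRNA:CG43051-a summit: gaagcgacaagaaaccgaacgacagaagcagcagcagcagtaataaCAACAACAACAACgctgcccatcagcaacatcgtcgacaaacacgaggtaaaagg
snoRNA:Or-CD14 summit: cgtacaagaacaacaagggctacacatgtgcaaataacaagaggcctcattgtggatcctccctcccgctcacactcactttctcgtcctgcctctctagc
scaRNA:MeU1:95C-A24 summit: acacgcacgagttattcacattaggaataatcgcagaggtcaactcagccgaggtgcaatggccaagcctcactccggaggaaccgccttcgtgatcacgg

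The gene names sort the members into 117 box C/D, 120 box H/ACA and 32 genes of no named class. The letters of the genes followed the names. The D box CTGA stood within the last 15 bases of 108 box C/D genes and the C box TGATGA within the first 20 bases of 80, while ACA stood within the last 8 bases of 114 box H/ACA genes and of 7 box C/D genes. Box C/D genes had a median length of 80 bp and box H/ACA genes of 140 bp. A host was found for 247 members: 192 lay in a protein-coding host and 55 in a non-coding one, and 71 of the 192 lay in ribosomal protein genes. The host was the shortest gene on the same strand that held the whole snoRNA gene, 12 members having another same-strand candidate. In 227 members the snoRNA overlapped no exon of any host transcript and counted as intronic. In 20 it lay on an exon of at least 1 transcript, and 22 members had no host.

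The thresholded peaks had been filtered by the irreproducible discovery rate (IDR), which keeps calls whose ranks recur between the sets of calls compared. A list of a single replicate cannot rest on a comparison of the 2 replicates, and what its calls were compared with was not examined here. The conservative list, taken from the 2 replicates, held 5692 peaks on the major arms, the pooled list 6193, the list of replicate 1 4519 and that of replicate 2 3678. Each peak comes with a summit and with the authors' own signal value, which has no unit, is the enrichment over background by the convention of the format, and is used here only within 1 list. A longer ranked list went with each of the 4 and held 126636 calls for the conservative list. Sequencing depth is not given in the files and is unknown here. No test was possible with 1 group, so shares are given with exact binomial 95% intervals. These cover counting error only and treat members as separate, although neighbouring snoRNA genes share summits.

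The share of snoRNA genes with a CG4360 summit, set beside that of all genes, depended on how distance was measured. Within 500 bp, 27 of 269 snoRNA genes had a conservative summit (95% interval of the share 6.72 to 14.3%), against 19.6% of all genes. The all-gene figure includes long genes that can hold summits in their bodies. Measured from the 5′ end alone, 24 snoRNA genes (8.92%, 5.8 to 13.0%) had a summit within 500 bp, against 12.1% of all genes, while 3.8% of the bases of the major arms lie within 500 bp of a conservative summit. Among other classes of small RNA gene 23 of 290 tRNA genes (7.93%), 8 of 32 snRNA genes (interval 11.5 to 43.4%) and 14 of 260 microRNA genes (5.38%) had a summit within 500 bp. The intervals of the tRNA, snRNA and microRNA shares overlapped that of the snoRNA genes.

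Within 1000 bp the count was 60 snoRNA genes (22.3%, 17.5 to 27.8%), against 23.3% of all genes. Measured from the 5′ end alone, the direction turned: the same share of snoRNA genes, 22.3%, stood against 16.5% of all genes. The members thus split into 27 with a summit within 500 bp, 33 with the nearest summit beyond 500 and up to 1000 bp and 209 farther away, 46 of them over 10000 bp from any. The members just inside 500 bp were Me28S-G2173 at 479 bp, Me28S-G980 at 487 bp and Or-CD14 at 499 bp. Just outside were U49:66Da at 501 bp, M at 526 bp and Or-CD9b at 569 bp.

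Each list gave a lower share for snoRNA genes than for all genes at 500 bp. The pooled list had a summit within 500 bp of 25 snoRNA genes, against 21.1% of all genes, and within 1000 bp of 60, against 25.1%. Replicate 1 had 13 snoRNA genes within 500 bp, against 16.5% of all genes, and 36 within 1000 bp, against 19.8%. Replicate 2 had 7 within 500 bp, against 13.9% of all genes, and 17 within 1000 bp, against 16.4%. From the 5′ end alone and within 1000 bp, the pooled list had a summit at 22.3% of snoRNA genes (17.5 to 27.8%), against 17.9% of all genes. On that measure replicate 1 had 36 of 269 snoRNA genes (13.4%, 9.55 to 18.0%), against 2551 of 18277 genes, and replicate 2 had 5.95% (3.44 to 9.48%), against 10.9%. At 1000 bp the direction thus depended on the list and on where distance was measured from.

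**Figure D1:**
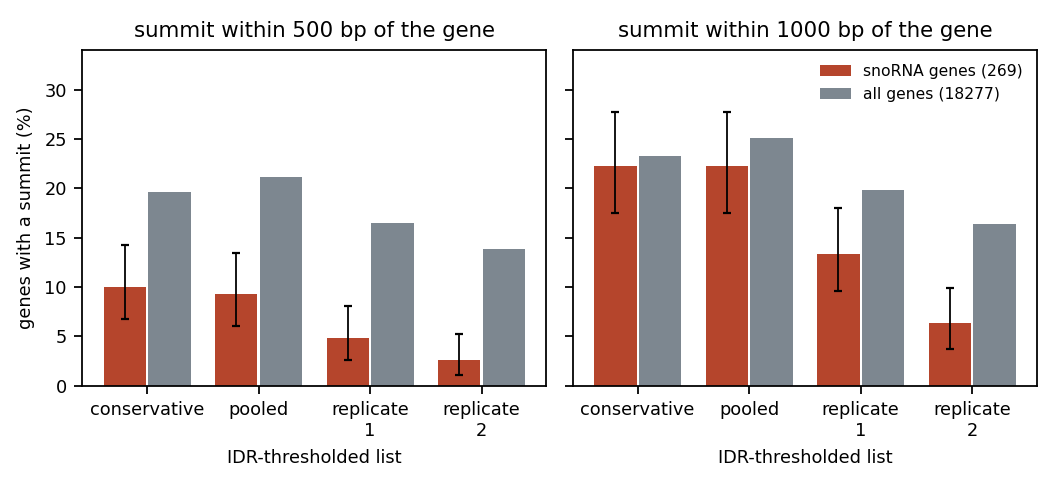
Share of snoRNA genes (red, with exact binomial 95% intervals) and of all genes (grey) with a summit within 500 bp (left) or 1000 bp (right) of the gene, in percent, for each of the 4 IDR-thresholded lists. At 500 bp the red bars stand below the grey ones in every list, and the grey bar of the conservative list reaches 19.6%; at 1000 bp the conservative shares are 22.3% and 23.3%.

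The 27 snoRNA genes shared 23 distinct summits. Of these, 17 had a hosted snoRNA as their neighbour: 8 lay within 500 bp of a transcript start of that host and 9 did not. The other 6 lay beside snoRNA genes with no host. Counted by gene, 18 members had summits at the snoRNA alone, 7 at the host start alone, and 2 had both, Psi28S-2949 and Or-aca5 in Uhg4. A summit counts as at the snoRNA where it is not within 500 bp of a start of the member's own host. The 5 members without a host thus fall there, and such a summit may lie at another gene. With starts of any gene set apart, the 18 became 15. Within 500 bp of a transcript start of some gene lay 12 of the 23 summits, against 2343 of all 5692 conservative summits. By annotation, 7 summits lay between genes, 6 in introns, 2 in UTRs, 1 in a coding exon and 7 on exons of non-coding genes, 3 of these 7 being the snoRNA genes themselves. The annotation of all conservative summits was not computed, so these counts are a description only. At 1000 bp the split was 31 members with summits at the snoRNA alone, 24 at the host start alone and 5 with both.

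**Figure D2:**
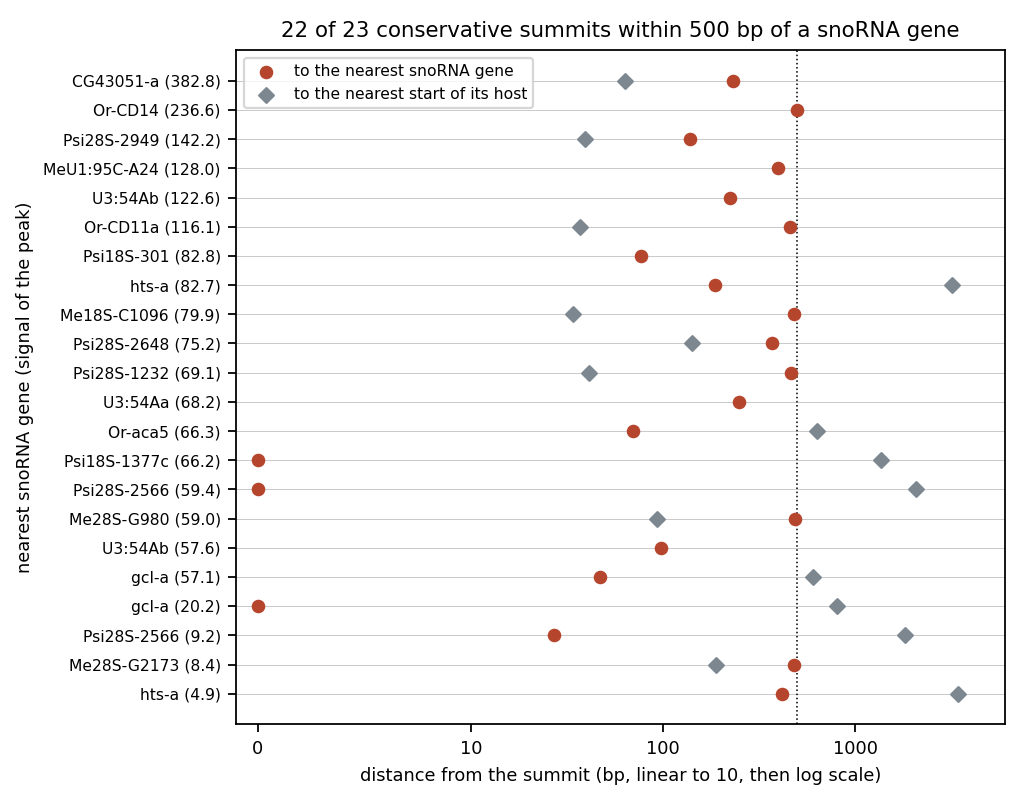
Distance in bp from 22 of the 23 conservative summits to the nearest snoRNA gene (red circles) and to the nearest transcript start of its host (grey diamonds, absent where there is no host), on an axis that is linear to 10 bp and logarithmic beyond; the dotted line marks 500 bp. Rows are ordered by signal, from 382.8 at CG43051-a to 4.9 at hts-a, and the 3 circles at 0 are the summits inside Psi18S-1377c, Psi28S-2566 and gcl-a.

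The strongest summit beside any member belonged to snoRNA:CG43051-a, a snoRNA of no named class on an exon of CG43051. Its signal was 220.1 in replicate 1 and 150.5 in replicate 2, and 382.8 in the conservative list, rank 537 of the list. The summit lay 63 bp from the CG43051 start and 232 bp from the snoRNA, in an intron of bun, a gene for a protein of the TSC-22 family, so it counts as a host start. The window around it, printed above, holds a run of CAACAACAACAAC.

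The other 7 summits at host starts were at the non-coding Uhg4 and at 6 genes for ribosomal proteins. The Uhg4 summit, 39 bp from the start and 138 bp from Psi28S-2949, had a signal of 63.9 in replicate 1, 76.6 in replicate 2 and 142.2 in the conservative list. The RpL28 summit, 37 bp from the start and 456 bp from Or-CD11a, had 67.9 in replicate 1, 49.4 in the ranked list of replicate 2 and 116.1 in the conservative list. RpL3 had 79.9 at 34 bp from its start, beside Me18S-C1096, and RpL36A had 75.2 at 142 bp, beside Psi28S-2648. Those at RpL17 (69.1, beside Psi28S-1232) and at sta, which encodes ribosomal protein SA (59.0, beside Me28S-G980), lay 41 and 93 bp from the start. The RpS16 summit near Me28S-G2173 had a signal of only 8.4 and lay next to a stronger one of 74.5 at the same start that was over 500 bp from the snoRNA. In all 8 cases the summit was nearer to the host start than to the snoRNA.

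Among the 9 hosted summits away from the host start, the RpS7 summit touched the most members. RpS7 encodes a small-subunit ribosomal protein and carries 7 box H/ACA snoRNAs in a row. Its summit fell inside Psi18S-1377c, 1366 bp from the nearest RpS7 start, and counted for 6 of the 7: Psi18S-1377a, b, c, d and e and Psi28S-2149. Its signal was 28.9 in replicate 1, 30.1 in replicate 2 (both in the ranked lists, below the IDR threshold there) and 66.2 in the conservative list, and it was not in the pooled thresholded list. The 5 copies of Psi18S-1377 were 67.8 to 85.8% identical in pairwise alignment, and how the authors' mapping shared reads between them was not tested. A second conservative summit in RpS7, with a signal of 88.5, lay 9 bp from a start of the gene and over 500 bp from all 7 snoRNAs.

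Uhg4 also held a summit among its snoRNAs. In Uhg4, a non-coding host of 7 snoRNAs, a summit of 66.3 in the conservative list lay on an exon, 629 bp from the start. It was 70 bp from the box H/ACA snoRNA Or-aca5 and within 500 bp of Psi28S-2949, Me28S-G3255a and Me28S-A982a. Its signal was 28.9 in replicate 1 and 42.1 in replicate 2, both in the ranked lists and not in the thresholded ones.

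A summit inside the box H/ACA snoRNA Psi28S-2566, in an intron of CG3902 and 2067 bp from the CG3902 start, had a signal of 59.4 in the conservative list. It had 35.1 in replicate 1 and 36.7 in replicate 2, both in the ranked lists and not in the thresholded ones. The snoRNA itself holds the word: GTTGTTGTTG on the RNA strand printed above is CAACAACAAC on the other. A weaker entry with a signal of 9.2 lay 27 bp outside the same snoRNA and had the same IDR value as the stronger one. In gcl, whose protein is needed for germ cell formation, summits of 57.1 and 20.2 lay 47 bp from and inside gcl-a, and the ranked list of replicate 1 held 1 call of 33.6 that overlapped both.

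Summits at hts-a, U3:54Ab and scaRNA:MeU1:95C-A24 lay beside tRNA genes, which RNA polymerase III transcribes, or beside an snRNA gene. At hts-a, in an intron of the adducin gene hts, the summit of 82.7 had 54.9 in replicate 1 and, in the ranked list only, 37.5 in replicate 2. It lay on tRNA:Ser-CGA-1-4, 78 bp from its start, 186 bp from the snoRNA and 3180 bp from the hts start. A companion of 4.9 lay on tRNA:Val-AAC-2-1. In all, 5 of the 23 summits were within 500 bp of a tRNA or snRNA start. The hts-a pair, the scaRNA:MeU1:95C-A24 summit and 1 of the U3:54Ab summits are 4 of them, and the fifth is the RpL17 summit, 264 bp from such a start. The same share over all conservative summits was not computed, so the count of 5 is a description only.

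The members without a host had a summit within 500 bp in 5 of 22 cases (22.7%, 7.82 to 45.4%), against 22 of 247 members with a host (8.91%, 5.67 to 13.2%). The intervals overlapped. Or-CD14 had the highest signal of the 5, with 122.3 in replicate 1, 109.6 in replicate 2 and 236.6 in the conservative list, but its summit was the farthest, at 499 bp, in an intron of CG4238. Its replicate 1 summit lay at 506 bp, just outside. Or-CD14 carries a C/D name, yet neither TGATGA in the first 20 bases nor CTGA in the last 15 was found in it. scaRNA:MeU1:95C-A24, which by its name guides methylation of U1 snRNA, had a summit of 55.9 in replicate 1, 74.9 in replicate 2 and 128.0 in the conservative list. That summit lay 396 bp away on snRNA:U1:21D itself, 74 bp from the U1 start, so the nearer gene is the U1 gene. The fly genome holds several near-identical U1 genes, and how reads were shared between them was not tested. Psi18S-301 stood apart from other starts. Its summit, 77 bp away, had 49.5 in replicate 1, 36.5 in replicate 2 (in the ranked list only) and 82.8 in the conservative list. The nearest start of a gene that is no snoRNA, that of TFAM, was 2181 bp off.

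The U3 genes U3:54Aa and U3:54Ab stand 1886 bp apart on opposite strands of arm 2R, and their 210 bp are identical. The 300 bp before each gene are 98.0% identical too, while the 300 bp after each are 54.8% identical. Beside U3:54Ab there were 2 summits. That of 122.6 (80.6 in replicate 1 and 50 in replicate 2) lay 222 bp away and 95 bp from the start of tRNA:Leu-AAG-1-3, and that of 57.6 (30 in replicate 1 and 29.2 in replicate 2) lay 98 bp away. Beside U3:54Aa there was 1, of 68.2 (40.6 in replicate 1 and 35.2 in replicate 2), 247 bp away. None lay inside a U3 gene. For the summits of 57.6 and 68.2 the replicate values come from the ranked lists. The pooled and replicate thresholded lists held no match for either. The third copy, U3:9B, was 22408 bp from its nearest conservative summit. Reads from the copies, or from stretches of flank that are identical, cannot be told apart by sequence.

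By kind of host, the ribosomal protein genes held most of the hosted members with a summit. Members in ribosomal protein hosts had a conservative summit within 500 bp in 14 of 71 cases (19.7%, 11.2 to 30.9%), against 4 of 121 in other protein-coding hosts (3.31%, 0.908 to 8.25%), and the intervals did not overlap. Of those 14, 6 share the RpS7 summit: without the members in RpS7 the count was 8 of 64 (12.5%, 5.55 to 23.2%), and the intervals then overlapped. Non-coding hosts gave 4 of 55 (7.27%), all in Uhg4. The intervals of the 2 structural classes overlapped: 12 of 117 box C/D genes (10.3%, 5.41 to 17.2%) and 12 of 120 box H/ACA genes (5.27 to 16.8%) had a summit. By distance to the nearest host start, 6 of 35 members within 500 bp of it had a summit (17.1%), 8 of 51 beyond 500 and up to 1000 bp (15.7%) and 8 of 161 farther away (4.97%).

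Summits stood at the start of a larger share of hosts than of the snoRNAs inside them. A conservative summit lay within 500 bp of a transcript start in 38 of 92 host genes (41.3%, 31.1 to 52.1%), against 13.9% of all genes and 15.9% of protein-coding genes. Protein-coding hosts had it in 37 of 82 cases (45.1%, 34.1 to 56.5%), and protein-coding genes that host no snoRNA in 15.7%. Ribosomal protein hosts had it in 16 of 28 cases (57.1%, 37.2 to 75.5%), and ribosomal protein genes without a snoRNA in 34 of 58 (58.6%, 44.9 to 71.4%), so the intervals of these 2 groups overlapped over most of their length. The other protein-coding hosts had 21 of 54 (38.9%, 25.9 to 53.1%). In the replicate lists the ribosomal protein hosts had 9 of 28 (32.1%) in replicate 1 and 7 of 28 in replicate 2, while the other protein-coding hosts had 16 of 54 (29.6%) and 14 of 54 (25.9%). Protein-coding genes as a whole had 13.2% in replicate 1 and 10.6% in replicate 2. Of the 10 non-coding hosts only Uhg4 had one. At least 1 ranked call lay at a start in 8 of the 10, where 73.2% of all genes had one within 500 bp of the 5′ end.

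**Figure D3:**
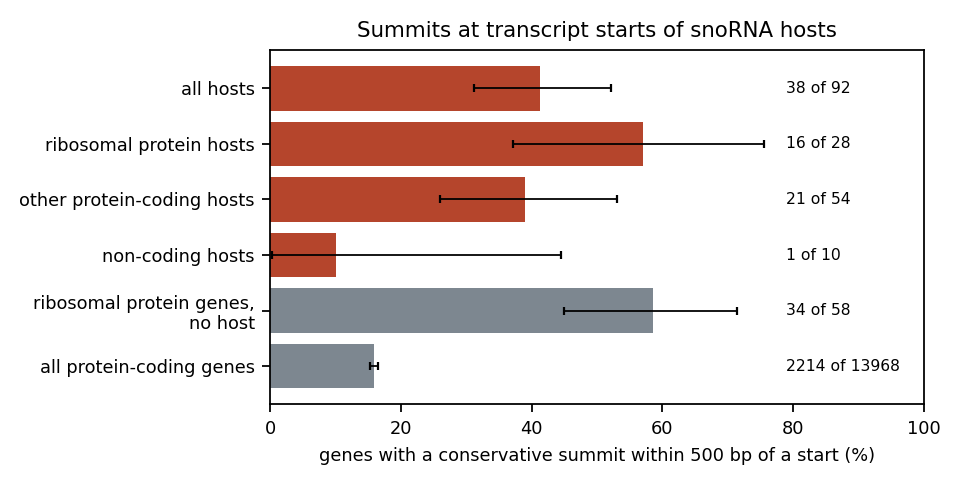
Share of genes with a conservative summit within 500 bp of a transcript start, in percent, with exact binomial 95% intervals, for snoRNA hosts (red) and for genes that serve as background (grey); counts stand at the right. Hosts as a whole reach 41.3%, ribosomal protein hosts 57.1%, ribosomal protein genes without a snoRNA 58.6% and all protein-coding genes 15.9%.

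The strongest summits at host starts were not at ribosomal protein genes. The kis start, of a gene for a chromodomain helicase with snoRNA kis-a, had a signal of 350.0 in replicate 1, 169.5 in replicate 2 and 514.1 in the conservative list. The tou start, of a gene for a chromatin remodelling factor, had 319.8, 161.9 and 477.9 in the same 3 lists. CG43051 followed with 382.8, CG1142 with 312.8, pAbp, for the poly(A) binding protein, with 196.3, lola, for a family of BTB transcription factors, with 172.0 and Msp300, for a nesprin, with 169.7. Among ribosomal protein hosts the highest signal at the start ran from 59.0 at sta to 147.9 at RpL30. The median was 85.2, against 119.0 in the other protein-coding hosts. Both medians take the strongest summit of each host. With every entry counted, weaker ones included, the median was 103.9 over all conservative peaks. It was 111.6 over those within 500 bp of a transcript start. In 24 of the 38 hosts the strongest start summit lay within 100 bp of the start. Over all 92 hosts, replicate 1 had a thresholded summit at a start in 26, replicate 2 in 22, both replicates in 18 and the pooled list in 36. These hosts are not all among the 38: Rbfox1, RpS9 and pit had a start summit in the pooled list and none in the conservative list.

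Of the 25 hosts with 3 or more snoRNA genes, 13 had a summit at a start and 12 did not. Arpc2, an Arp2/3 complex subunit with 17 box H/ACA snoRNAs, had a signal of 70.1 at its start, dom, a chromatin remodelling ATPase gene with 15, had 90.4 and RpS5a with 14 had 91.0. In none of these 3 did any snoRNA have a conservative summit within 500 bp, their snoRNAs lying downstream of the start. The others with one were RpS7 (88.5), Uhg4 (142.2), RpL28 (116.1), RpS16 (74.5), RpL17 (69.1), RpL3 (79.9), lola (172.0), RpS4 (110.9), pAbp (196.3) and Stt3A (155.5), a subunit of oligosaccharyltransferase. The 12 without were Uhg1 with 16 snoRNAs, Uhg5 with 11, Uhg2, Uhg3, Uhg7, Uhg8, lncRNA:CR45184, the translation factor gene kra with 8, the hnRNP gene Hrb98DE and the dyskerin gene Nop60B with 7 each, CG10576, and Sf3b3 for a splicing factor. Of these 12, 7 are non-coding. Of the 121 snoRNA genes in hosts with a summit at a start, 103 had no conservative summit within 500 bp of the snoRNA itself. The 18 that had one (14.9%, 9.06 to 22.5%) stood against 4 of 126 in hosts without a start summit (3.17%, 0.872 to 7.93%). These intervals did not overlap. The members are not separate, however: 7 of the 18 had the host-start summit alone, and 6 share the RpS7 summit.

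**Figure D4:**
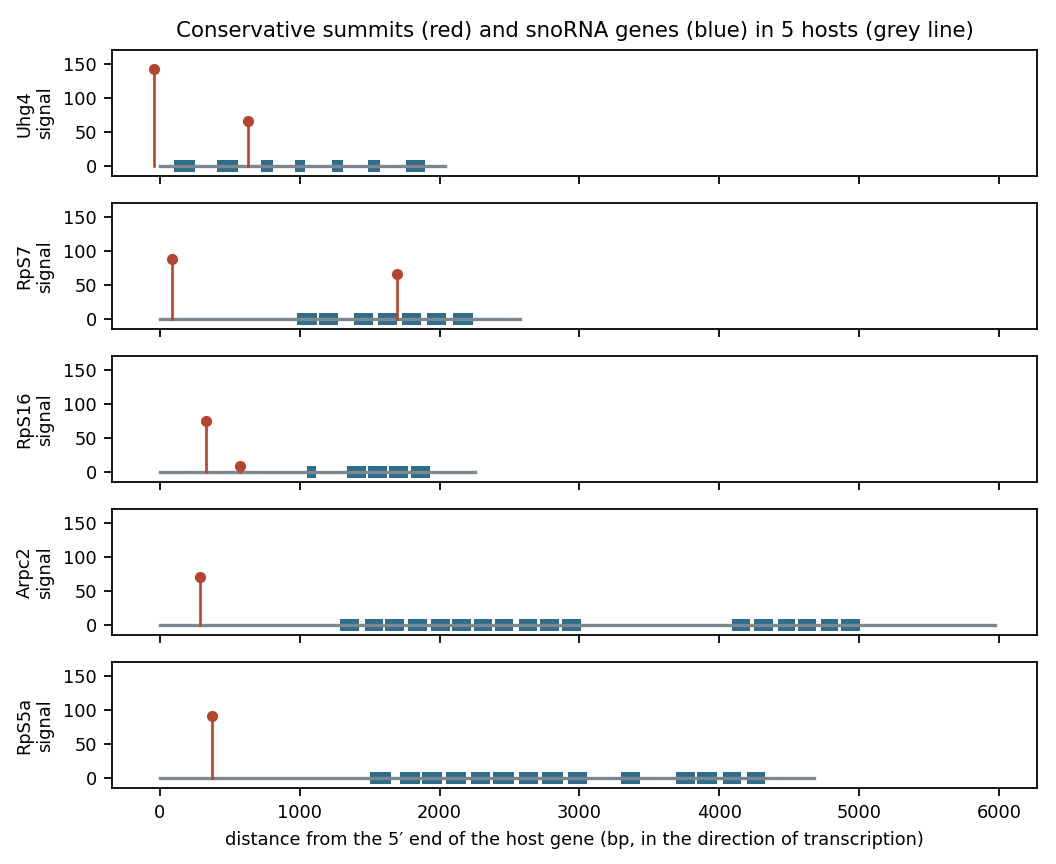
Position of conservative summits (red, height is the deposited signal) and of snoRNA genes (blue) along 5 hosts (grey line), in bp from the 5′ end of the host in the direction of transcription. Arpc2, RpS5a and RpS16 have summits at the start alone, and RpS7 and Uhg4 have 1 at the start and 1 among the snoRNAs (66.2 and 66.3).

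The summits near snoRNA genes had a lower median signal than the list as a whole. It was 68.2, with a range of 4.9 to 382.8, against a median of 103.9 over all 5692 conservative peaks, and 6 of the 23 lay above that median. At host starts the median of the 8 was 77.6, at hosted snoRNAs away from the start the median of the 9 was 57.3, and at members without a host the median of the 6 was 102.7. The 4 entries under 50 (20.2, 9.2, 8.4 and 4.9) each stood beside a stronger summit and overlapped no separate thresholded call in either replicate.

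In the ranked calls, 214 of the conservative ranking lay within 500 bp of a snoRNA gene and 23 of them passed the IDR threshold (10.7%, 6.94 to 15.7%), against 4.49% of all ranked calls. In the pooled ranking 8.93% passed, against 4.85% of all calls. The single replicates did not show this excess: 5.43% passed in replicate 1, against 5.03% of all calls, and 3.53% in replicate 2, against 4.19%. In the conservative ranking the calls near snoRNA genes had 25.6 as their median signal, and the whole ranking had 19.2. Of the snoRNA genes, 195 (72.5%) had a ranked call within 500 bp in the conservative ranking, against 85.3% of all genes, and 200 (74.3%) in the pooled one, also against 85.3%. The ranked list of replicate 1 had a call at 166 (61.7%), against 78.7% of all genes, and that of replicate 2 at 162 (60.2%), against 80.0%. Long genes raise these all-gene shares. From the 5′ end alone the shares were 69.1% (63.3 to 74.6%) of snoRNA genes, against 73.2% of all genes, in the conservative ranking, 71.0%, against 73.1%, in the pooled one, 59.1%, against 61.8%, in replicate 1 and 55.8%, against 61.9%, in replicate 2.

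The replicates called few of the members separately. Both replicate thresholded lists had a summit within 500 bp of 5 snoRNA genes, against 12.2% of all genes: scaRNA:MeU1:95C-A24, CG43051-a, Psi28S-2949, Or-aca5 and U3:54Ab. The same 5 of 269 had one in all 4 thresholded lists, against 2207 of 18277 genes. In at least 1 list, 36 of 269 members had one, against 4244 of 18277 genes. Replicate 1 alone had a summit at 8 members and replicate 2 alone at 2, where all genes had 800 and 316. Of the 27 members with a conservative summit, 16 had one in neither replicate list (59.3%, 38.8 to 77.6%), against 17.6% of all genes with a conservative summit. The members are not separate here, since the RpS7 summit counts for 6 of the 27 and matched no thresholded call in either replicate. The all-gene share includes long genes that can hold several summits. By distinct summit, 14 of the 23 matched no thresholded call in either replicate. Of the 23 summits, 19 overlapped a ranked call in each replicate, where the median signal was 40.6 in replicate 1 and 42.1 in replicate 2. Values of different lists stand side by side without a comparison. The labels call the 2 samples biological replicates and do not say whether they came from separate collections.

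**Figure D5:**
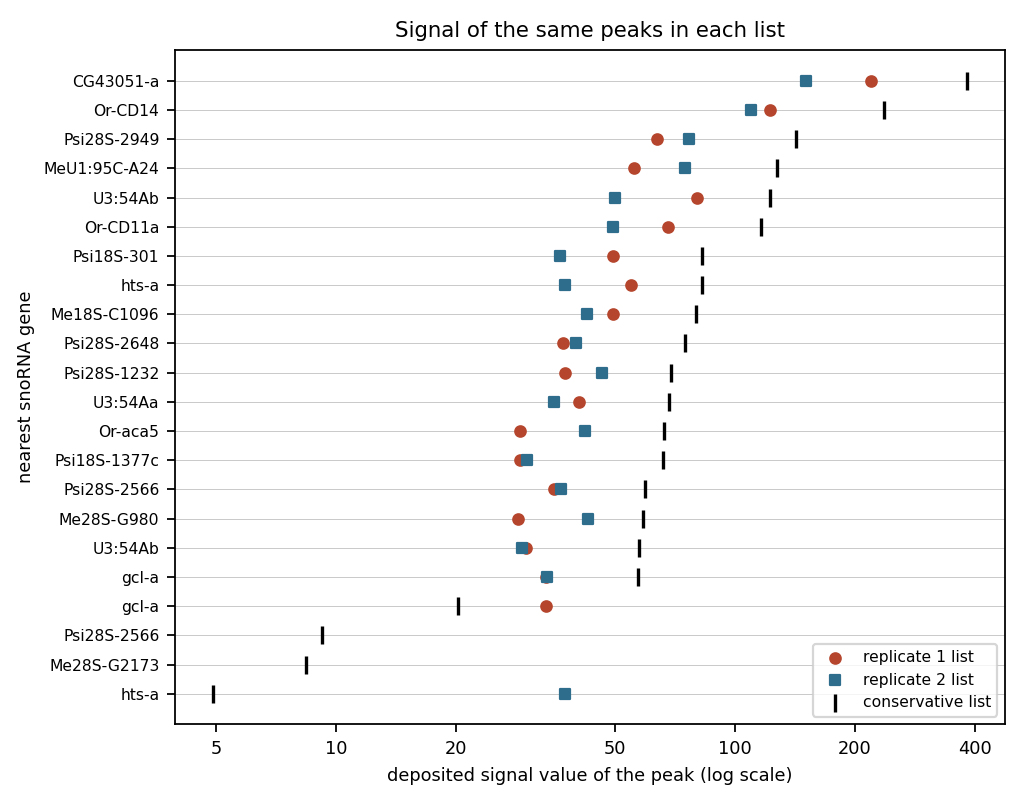
Deposited signal (log axis) of 22 of the 23 peaks in the ranked lists of replicate 1 (red circles) and replicate 2 (blue squares) and in the conservative list (black bars), ordered by the conservative value. Replicate values run from 28.6 to 220.1 in replicate 1 and from 29.2 to 150.5 in replicate 2 over the 18 drawn peaks found in both; the 4 lowest peaks have a call in 1 replicate or in none.

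The word CAACAAC, or GTTGTTG on the other strand, stood within 50 bp of 4 of the 23 summits (17.4%, 4.95 to 38.8%), against 45.1% of all conservative summits. Among them were those of CG43051-a, U3:54Ab (the stronger) and Psi28S-2566. The share over the whole list was unlike from one band of signal to another, so the counts are given by band. Between 50 and 100 it stood at 2 of 13 summits near snoRNA genes and at 28.5% of all. Between 100 and 400 the counts were 2 of 6 and 57.2%, and under 50 they were 0 of 4 and 11.0%. At host starts, the strongest summit had the word in 9 of 38 hosts (23.7%, 11.4 to 40.2%), against 37.0% of all conservative summits within 500 bp of a transcript start. These were 9 of the 21 other protein-coding hosts with a start summit (42.9%, 21.8 to 66.0%), among them kis, tou, lola, pAbp and Arpc2, and 0 of the 16 ribosomal protein hosts (upper bound 20.6%). The host counts take only the strongest summit of each host, whereas the 37.0% takes every summit. The interval over all hosts holds 37.0%. Word counts by band of signal were not computed for host starts.

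The word also occurs inside snoRNA genes. It was found in 11 of 120 box H/ACA genes (9.17%) and in 1 of 117 box C/D genes, and 8 of these 12 have it as GTTGTTG in the RNA strand. Of the 12, 2 had a conservative summit within 500 bp, Psi28S-2566 with its summit inside the gene and Psi28S-2648 with its summit 367 bp away at the RpL36A start, against 25 of the 257 members without the word. The 4 copies of Psi28S-3405 in Hrb98DE all hold it, and their nearest conservative summits were 3323 to 4350 bp away. A match of these letters is a description and does not show a binding site.

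The genes for the proteins that bind snoRNAs were examined too, with counts too small to set apart from the background. Of the 15 snoRNP genes examined, 1 had a conservative summit within 500 bp of a transcript start (6.67%, 0.169 to 31.9%), against 15.9% of protein-coding genes, and 2 had one in the pooled list (13.3%, 1.66 to 40.5%), against 17.1%. The conservative one was NHP2, for a core box H/ACA protein, with 66.7 at 167 bp, where replicate 1 had 37.0 and replicate 2 had no thresholded call. The other core box H/ACA genes, Nop60B (the pseudouridine synthase), Nop10 and Gar1, had none, nor did the core box C/D genes Fib (the methyltransferase), Nop56, nop5 and hoip, nop5 having its nearest summit, of 69.2, at 503 bp. Of the assembly, nucleolar and Cajal body factors pont, rept, spag, Nufip, Nopp140, coil and Smn, none had a conservative summit there, while Nopp140 had one of 52.8 in the pooled list and of 37.7 in replicate 1.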

How the data were processed

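Peaks came from ChIP-seq of CG4360-eGFP in whole embryos, 2 biological replicates of 1 group. Per the file headers and the labels, the authors deposited narrow peaks on dm6 in 8 lists, 4 ranked and 4 filtered by IDR; for the aligner, the peak caller and the read depth: not given in the sources used here. Signal is the authors' deposited value in column 7, score the deposited column 5 (at least 830 in the conservative list), and the ranked lists deposited by the authors also give −log10 of the IDR. Summits were column 2 plus column 10. snoRNA genes, transcript starts and exons were those of Ensembl release 115, and sequence came from RefSeq's Release 6 genome, after chromosome lengths were checked. Distances run from the summit to the nearest base of the gene; a host start is within 500 bp of any annotated host transcript start. Replicate peaks were matched at a reciprocal overlap of at least 0.5. Named are all snoRNA genes with a conservative summit within 500 bp and their hosts, hosts with 3 or more snoRNA genes, and the snoRNP genes; strong host starts, the U3 and Psi28S-3405 copies, other host starts with the word and the members beside the distance limit were named after their values were seen. The members and lists were chosen with earlier results of these data known. Alternatives covered the list, the distance, the IDR, the host rule and the word. The distance steps were tested on simulated data with pandas 2.3.3, numpy 2.4.6, scipy 1.17.1 and biopython 1.88. Only intervals, and no tests, were computed. As the exception to that rule, a conservative summit, its host and the 2 snoRNA genes beside it are counted but not reported here by name, nor drawn.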

Additional observations from a re-analysis of the deposited data

How the results depend on the processing

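Of 58 alternative values, 39 stayed within 1.5 times the reported count, within the interval of the reported share, or within the spread between the replicate medians (14.4), and 19 did not. The count of 27 snoRNA genes ran from 7 to 13 with 1 replicate list left out and was 7 at an IDR of at most 0.001, 14 at 250 bp and 60 at 1000 bp. The 18 members with summits at the snoRNA alone became 3 to 9 with 1 replicate left out, 3 at an IDR of at most 0.001 and 31 at 1000 bp. The 38 host starts became 22 to 26 with 1 replicate left out and 18 at an IDR of at most 0.001. At that IDR the median signal near snoRNA genes was 135.1 in place of 68.2. The share of ranked calls that passed was 3.53 to 5.43% in the lists of single replicates (4.19% and 5.03% of all calls there), in place of 10.7%. The members called in both replicates became 15 at 1000 bp in place of 5. The snoRNP genes with a start summit became 2 in the pooled list and at 1000 bp, and 0 to 2 with 1 replicate left out. Fewer peaks enter at a stricter IDR or in 1 replicate list; otherwise the cause was not tested. Alternatives added after seeing the data left 26 snoRNA genes without peaks of signal under 50, and 24 without summits at tRNA or snRNA starts. No paired analysis was possible because there is 1 group. In ribosomal protein hosts, the 14 members with a summit became 8 without those in RpS7. With 1 group and no control experiment analysed here, the counts describe peaks of the tagged protein and compare no condition.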
